A study of Mus musculus with 2 samples.

Results

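Glycolysis and glucose uptake were followed through 10 genes, *Slc2a1*, *Hk1*, *Hk2*, *Hk3*, *Pfkl*, *Pfkp*, *Pgk1*, *Eno1*, *Pkm* and *Ldha*, out of 32524 genes in the deposited tables. They were chosen by name for their step in the pathway, with earlier results of these data known. Each was read in every cell type and in both libraries of the study. The libraries hold CD45+CD11b+ cells that were sorted from the synovium of the hind paws of wild-type C57BL/6 mice, which were 7 to 10 weeks old at the start. One group received 1 mg β-glucan intraperitoneally, and the other received PBS, 7 days before arthritis was induced. Arthritis was induced in both groups, and cells were taken at day 17 of the disease. The study's methods and figure legends name K/BxN serum transfer, with cells taken at day 17, as the arthritis of this experiment. The sample labels instead describe arthritis from injected monoclonal antibodies followed by lipopolysaccharide, a model whose joints the paper harvested at day 7. The paper's account is followed here, and why the labels differ is not stated. Cells of 4 mice were pooled in each library, so each group is 1 sample, no mouse can be told from another, and no difference between the groups has a replicate check.

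As background, glycolysis splits glucose into pyruvate in the cytosol and yields ATP without oxygen. Glucose enters through facilitative transporters such as GLUT1, encoded by *Slc2a1*, hexokinases trap it by phosphorylation, phosphofructokinase commits it to the pathway, and phosphoglycerate kinase, enolase and pyruvate kinase complete the lower steps before lactate dehydrogenase can reduce pyruvate to lactate. In macrophages and dendritic cells the pathway is known to be raised by inflammatory stimuli and by low oxygen, where the transcription factor HIF binds short DNA motifs near many of these genes, and a shift toward glycolysis is a known trait of β-glucan-trained monocytes.

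The 250 bases before the annotated start sites were searched for ACGTG and GCGTG, the core letters bound by HIF, on both strands, and a palindromic CACGTG, which also is the core letters bound by MYC family factors, contains ACGTG on both strands. All 10 members matched a RefSeq promoter entry (GRCm38.p6), with 15 windows in total. At least 1 match was found in 13 of these 15 windows and in 38.6% of the 32851 promoter windows of all genes. The members' windows had a median G and C content of 62.8%, against 52.4% over all windows, and the part of base composition in the matches was not tested. In all, 5 windows are shown with the matched letters in capitals, 4 of them from members that were lower in the β-glucan library by the most and 1 from *Hk3*, which was not. Of the windows not shown, the 2 of *Hk1* held 0 and 3 matches, that of *Hk2* held 2, that of *Pfkl* held 1 and the second of *Ldha* held 1. The 3 of *Eno1* held 1, 2 and 2, and the 2 of *Pkm* held 0 and 1. *Hk1*, *Hk2* and *Pfkl* were not lower by at least 0.25 in log2, whereas *Eno1* and *Pkm* were. The 5 windows shown therefore do not compare lower members with the others. A match is a description of letters and not a bound site.
Slc2a1 (chr4:119108495-119108744, strand +): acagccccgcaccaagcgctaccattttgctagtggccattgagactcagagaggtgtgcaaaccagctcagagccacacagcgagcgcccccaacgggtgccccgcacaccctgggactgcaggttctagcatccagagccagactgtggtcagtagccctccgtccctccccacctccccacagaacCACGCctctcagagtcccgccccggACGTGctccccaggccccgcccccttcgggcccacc
Pfkp (chr13:6648772-6649021, strand -): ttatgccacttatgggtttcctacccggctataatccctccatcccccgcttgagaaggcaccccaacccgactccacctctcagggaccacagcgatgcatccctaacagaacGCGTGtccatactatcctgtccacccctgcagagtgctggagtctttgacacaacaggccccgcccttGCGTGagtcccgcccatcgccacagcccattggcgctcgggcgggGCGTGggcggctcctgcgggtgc
Pgk1 (chrX:106186850-106187099, strand +): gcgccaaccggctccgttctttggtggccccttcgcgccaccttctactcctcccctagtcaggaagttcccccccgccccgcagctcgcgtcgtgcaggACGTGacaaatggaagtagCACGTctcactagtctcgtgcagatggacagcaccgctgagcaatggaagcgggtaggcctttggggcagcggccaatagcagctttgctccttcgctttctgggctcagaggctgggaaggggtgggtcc
Ldha (chr7:46845554-46845803, strand +): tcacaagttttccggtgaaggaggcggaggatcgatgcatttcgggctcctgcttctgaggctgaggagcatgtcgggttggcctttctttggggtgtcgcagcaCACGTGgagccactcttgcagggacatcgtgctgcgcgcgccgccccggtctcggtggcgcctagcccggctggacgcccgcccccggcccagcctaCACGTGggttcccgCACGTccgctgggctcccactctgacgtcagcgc
Hk3 (chr13:55021386-55021635, strand -): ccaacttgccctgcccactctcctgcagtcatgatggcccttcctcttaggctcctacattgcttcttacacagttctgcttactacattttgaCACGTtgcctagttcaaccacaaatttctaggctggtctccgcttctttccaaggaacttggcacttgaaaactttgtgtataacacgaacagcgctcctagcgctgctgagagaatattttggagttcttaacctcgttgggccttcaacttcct

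The β-glucan library held 81611849 unique molecular identifiers (UMIs, a count of captured RNA molecules) over 7196 barcodes and the PBS library 73874602 over 5760, and 5696 and 4553 cells passed a minimum of 500 genes and a maximum of 10% mitochondrial UMIs. Median depth was 12457.5 UMIs per β-glucan cell and 14475 UMIs per PBS cell. The libraries share 7 barcodes, of which 2 were kept in both. Clusters were rebuilt without using the members and number 19, of which 16 hold at least 50 cells per library, and a name ending in -like rests on fixed markers. Not all cells of the sort were myeloid, since B cell-like, T cell-like, NK cell-like and stromal-like clusters were found. The compartment of macrophage-like and antigen-presenting cell (APC)-like cells, with 2 unnamed clusters in which no marker of another class leads, counts 4615 β-glucan and 3676 PBS cells in 11 clusters. Levels are given in CPM, the UMIs of a gene per 1000000 UMIs, with the cells of a cluster summed per library, and they are compared across clusters, never between genes.

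**Figure D1:**
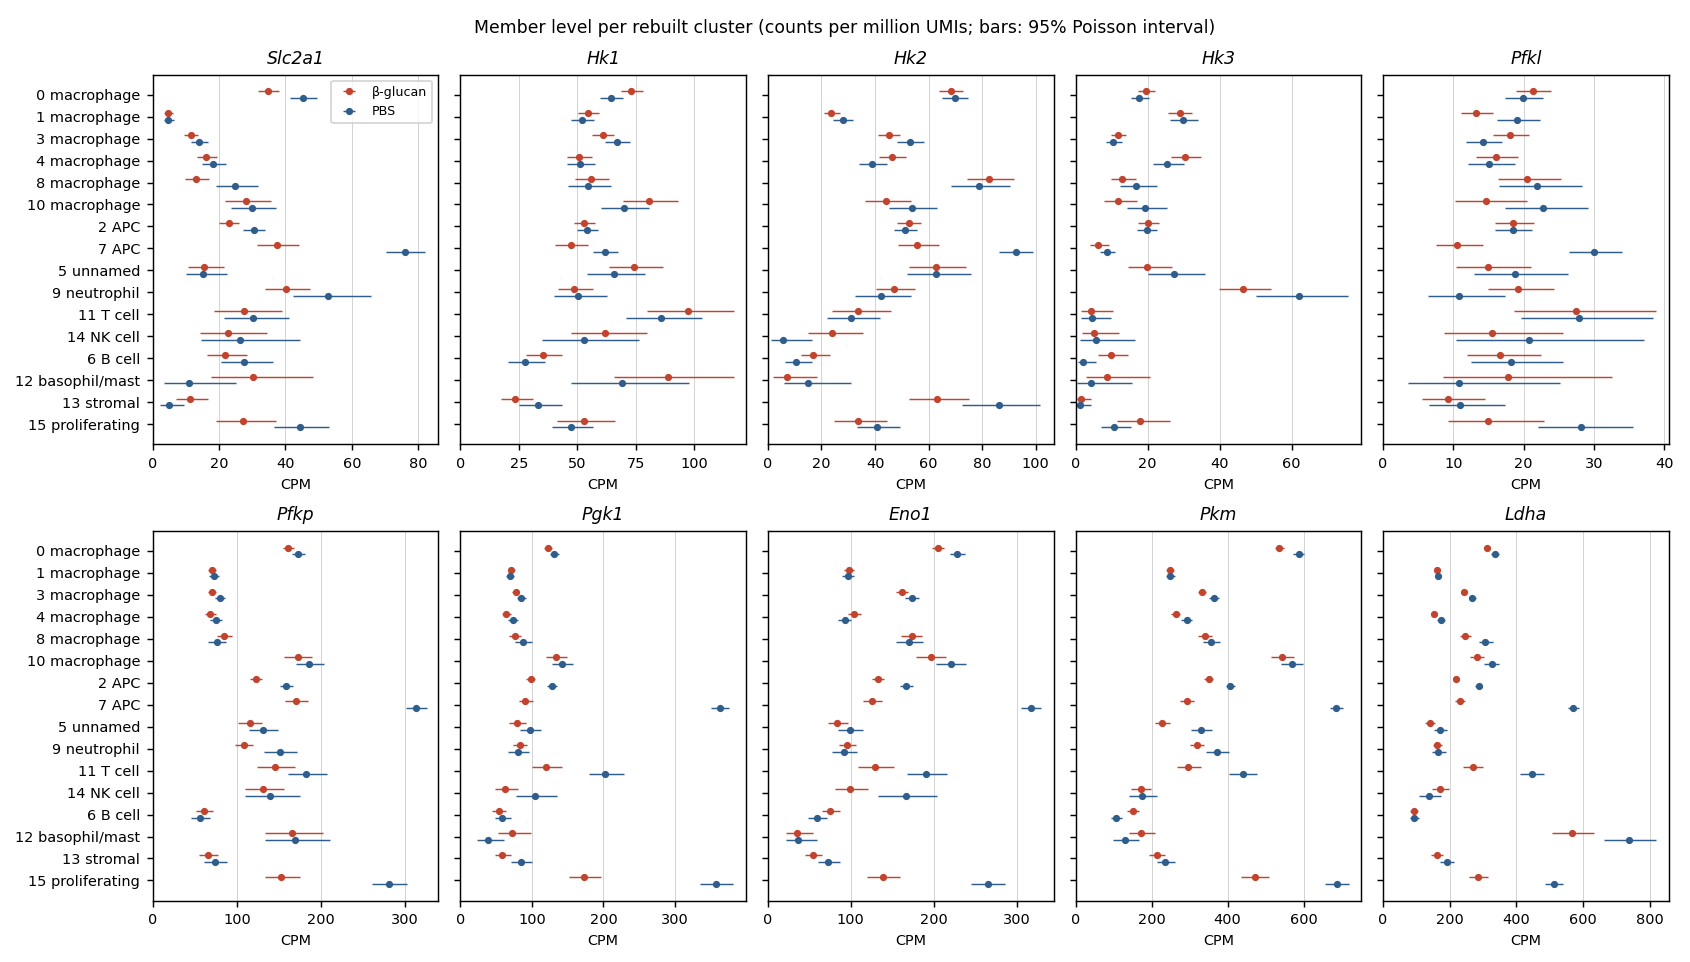
Level of each member in CPM (x axis, a scale of its own per gene) in 16 rebuilt clusters (y axis) for the β-glucan library (red) and the PBS library (blue), with 95% Poisson intervals that cover counting error only. In cluster 7 the PBS point lies to the right of the β-glucan point for all 10 genes, by far for *Pgk1*, whereas in cluster 1 the points of most genes nearly coincide.

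For glucose entry, RNA of *Slc2a1* was counted in all 16 clusters, at levels that differed widely. Uptake of glucose itself was not measured. *Slc2a1*, which encodes the transporter GLUT1, had its highest mean level in cluster 7, APC-like cells led by *Ccl17* and *Slc7a2*, at 37.5 CPM with β-glucan and 76.0 CPM with PBS. Neutrophil-like cells followed at 40.2 CPM with β-glucan and 53.0 CPM with PBS, and macrophage-like cluster 0, led by *Nt5e* and *Spp1*, at 34.7 CPM with β-glucan and 45.4 CPM with PBS. The ranges of these 3 clusters over the 2 libraries overlap, so they do not differ beyond that spread. At the low end, macrophage-like cluster 1, led by *Ednrb* and *Cd163*, stood at 4.73 CPM with β-glucan and 4.62 CPM with PBS, below all other clusters in both libraries. With PBS, stromal-like cells were close to it, at 4.86 CPM on 8 UMIs. Their counting interval, 2.10 to 9.57 CPM, includes the level of cluster 1. The mean level of cluster 7 was 12.1 times that of cluster 1. Among macrophage-like cells the transporter ranged from cluster 1 up to cluster 0, with clusters 3, 4, 8 and 10 in between.

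The 3 hexokinases, which phosphorylate glucose, differed from each other in where they were found. *Hk1*, the form known from most tissues, varied little, with a 3.23-fold span of means from T cell-like cells (97.2 CPM with β-glucan and 85.9 CPM with PBS) to stromal-like cells (23.4 CPM with β-glucan and 33.4 CPM with PBS). *Hk2*, the inducible form, was highest in macrophage-like cluster 8, led by *Olr1* and *Ctsd*, at 82.7 CPM with β-glucan and 78.9 CPM with PBS. Stromal-like cells (63.3 and 86.3 CPM) and cluster 7 (55.8 and 92.5 CPM) overlap that range. It was low in B cell-like cells (17.0 and 10.5 CPM) and in basophil/mast-like cells, where 4 UMIs and 7 UMIs were counted. *Hk3*, known as a myeloid hexokinase, was highest in neutrophil-like cells at 46.6 CPM with β-glucan and 61.9 CPM with PBS, with no overlap with any other cluster. Macrophage-like clusters 1 and 4 came next at 29.0 and 29.9 CPM and 30.5 and 25.5 CPM. In stromal-like cells 3 UMIs and 2 UMIs were counted, so the level there is near the limit of what the depth can show. Of the UMIs of the 3 genes together, *Hk3* took 32.7% and 40.1% in neutrophil-like cells and 27.0% and 27.2% in cluster 1, but 5.76% and 5.34% in cluster 7 and 3.27% and 3.73% in T cell-like cells (β-glucan, then PBS). Between the libraries, the share of *Hk2* in cluster 0 was 42.4% of 2171 UMIs with β-glucan and 45.9% of 1687 with PBS, in cluster 7 it was 51.1% of 417 and 56.7% of 1387, and the share of *Hk1* in cluster 10 was 59.1% of 325 and 48.9% of 378. Other clusters went the other way, so the shares had no common direction. The share of *Hk2* was 36.3% and 33.6% in cluster 4 and 54.5% and 52.4% in cluster 8. That of *Hk1* was 39.8% and 44.3% in cluster 4 (β-glucan, then PBS).

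Of the phosphofructokinases, the enzymes of the committing step, *Pfkl* encodes the liver form and *Pfkp* the platelet form. For *Pfkl* the 2-library ranges of all 15 pairs of neighbours in the order of clusters overlap, so no neighbours differ beyond their spread, and the means span 2.74-fold. *Pfkp* separated the clusters into a high and a low set. Cluster 7 (170.3 CPM with β-glucan and 313 CPM with PBS), proliferating-like cells (153 and 281 CPM), macrophage-like clusters 10 (172 and 186 CPM) and 0 (161 and 173 CPM) were at the top, and the unnamed cluster 5 was the last of this set at 115 and 131 CPM. Below a step without overlap lay macrophage-like clusters 8, 3, 4 and 1, stromal-like cells and, lowest, B cell-like cells at 61.2 and 55.7 CPM.

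For the lower steps, clusters 0 and 10 were high in both libraries. Cluster 7 was high in the PBS library and not in the β-glucan library, where *Eno1*, *Pkm* and *Pgk1* were below their levels in cluster 2. Proliferating-like cells were high in both libraries for *Pgk1* and *Pkm*. Their *Eno1* with β-glucan, 138 CPM, lay below macrophage-like clusters 8 (173 CPM) and 3 (162 CPM). The 10 members summed to 0.137% of their UMIs with β-glucan and 0.227% with PBS. *Pgk1*, an ATP-yielding enzyme of the pathway, was highest on average in proliferating-like cells (173 CPM with β-glucan and 357 CPM with PBS) and in cluster 7 (90.9 CPM with β-glucan and 363 CPM with PBS). *Eno1*, enolase, had its highest mean in cluster 7 (126 and 317 CPM), was at 205 CPM with β-glucan and 229 CPM with PBS in cluster 0 and was lowest in basophil/mast-like cells (35.5 and 36.7 CPM). A near-identical copy, *Eno1b*, is counted separately, so how reads were split between the copies is uncertain. *Pkm*, pyruvate kinase, which makes pyruvate and ATP, was at 536 CPM with β-glucan and 586 CPM with PBS in cluster 0 and at 249 CPM with β-glucan and 249.6 CPM with PBS in cluster 1, the lowest macrophage-like cluster, while B cell-like cells had 149.9 and 107 CPM.

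*Ldha*, the lactate dehydrogenase subunit that turns pyruvate into lactate, had its highest mean outside the compartment, in basophil/mast-like cells, at 566 CPM with β-glucan and 737 CPM with PBS. Cluster 7 followed with 229 CPM with β-glucan and 570.3 CPM with PBS, a range wide enough to overlap those of basophil/mast-like, proliferating-like and T cell-like cells and of macrophage-like clusters 0 and 10. The lowest level was in B cell-like cells, at 91.2 CPM with β-glucan and 93.2 CPM with PBS. Summed, the 10 genes made up 0.155% with β-glucan and 0.167% with PBS of the UMIs in cluster 0. They made up 0.151% with β-glucan and 0.164% with PBS in cluster 10 and 0.0774% with β-glucan and 0.0787% with PBS in cluster 1. In cluster 7 they made up 0.107% with β-glucan and 0.252% with PBS, so that this cluster was the highest of the compartment in the PBS library and cluster 0 in the β-glucan library.

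Over the 16 clusters, on log2(CPM + 10) of the mean of both libraries, *Eno1* and *Pkm* had the most alike profiles among the members (Pearson r = 0.846), followed by *Pgk1* and *Pkm* (r = 0.808) and *Pfkp* and *Pgk1* (r = 0.777). *Hk3* stood apart, with r between -0.22 for *Ldha* and 0.31 for its closest member. These correlations are descriptions over clusters that share 2 libraries and their depth. Among the 6948 other genes with at least 20 CPM, the mean profile of the members was most like that of *Gapdh* (r = 0.925), the glycolytic dehydrogenase, and of *Acot7*, an acyl-CoA thioesterase (r = 0.922). The 3 genes most like each member were *Cytip*, *Bloc1s2* and *Ier5* for *Slc2a1* (r = 0.787 to 0.817). For *Hk1* they were *Syne3*, *Cdk6* and *Acsl4* (r = 0.882 to 0.914). Those of *Hk2* were *Tle1*, *Pdpn* and *Ptprs* (r = 0.886 to 0.919). For *Hk3* they were *Cd300lb*, *Cd300ld* and *Igsf6* (r = 0.916 to 0.935). Those of *Pfkl* were *AI504432*, *Ciapin1* and *Polr3c* (r = 0.868 to 0.904). For *Pfkp* they were *Pigx*, *Mfsd10* and *Fam104a* (r = 0.819 to 0.830). Those of *Pgk1* were *Mthfd2*, *AA467197* and *Tor1a* (r = 0.870 to 0.905). For *Eno1* they were *Cdc37*, *Kctd10* and *Flna* (r = 0.902 to 0.942). Those of *Pkm* were *Plp2*, *Ckb* and *Pgam1* (r = 0.937 to 0.966). For *Ldha* they were *Hint2*, *Ier3ip1* and *Cops9* (r = 0.854 to 0.865). *Pgam1*, on the list of *Pkm*, is the glycolytic mutase between the steps of *Pgk1* and *Eno1*.

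The comparison between the libraries asks whether glycolytic transcripts of synovial myeloid cells differ after β-glucan. In the compartment, 8 of the 10 members were lower in the β-glucan library, and 6 of them, *Slc2a1*, *Pfkp*, *Pgk1*, *Eno1*, *Pkm* and *Ldha*, were lower by at least 0.25 in log2. *Slc2a1* stood at 19.97 CPM with β-glucan and 31.7 CPM with PBS, *Pgk1* at 90.5 CPM with β-glucan and 141 CPM with PBS and *Ldha* at 228 CPM with β-glucan and 305 CPM with PBS. Expressed as a log2 ratio of β-glucan over PBS, with an exact 95% interval that covers counting error only, the values were -0.67 [-0.77 to -0.57] for *Slc2a1*, -0.64 [-0.69 to -0.59] for *Pgk1* and -0.42 [-0.46 to -0.39] for *Ldha*. *Pfkp* was at 111 CPM with β-glucan and 151 CPM with PBS, *Eno1* at 146 CPM with β-glucan and 184 CPM with PBS and *Pkm* at 358 CPM with β-glucan and 443 CPM with PBS, and their ratios were -0.44 [-0.49 to -0.40], -0.33 [-0.37 to -0.29] and -0.31 [-0.33 to -0.28]. The hexokinases stayed inside the limit, with 0.0077 [-0.058 to 0.073] for *Hk1*, -0.19 [-0.26 to -0.12] for *Hk2* and 0.070 [-0.047 to 0.19] for *Hk3*, and neither did *Pfkl* pass the limit at -0.21 [-0.33 to -0.093]. In CPM, *Hk1* was at 59.6 and 59.3, *Hk2* at 51.2 and 58.3, *Hk3* at 19.4 and 18.5 and *Pfkl* at 17.2 and 19.9 (β-glucan, then PBS). The intervals of *Hk2* and *Pfkl* lie below 0, and those of *Hk1* and *Hk3* include it. Over all 9808 genes with at least 5 CPM, 4.83% were lower by that much, 7.57% were higher by that much, against 0 members, and 42.2% were lower at all. The members' median log2 ratio was -0.32, beside 0.028 over all genes.

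**Figure D2:**
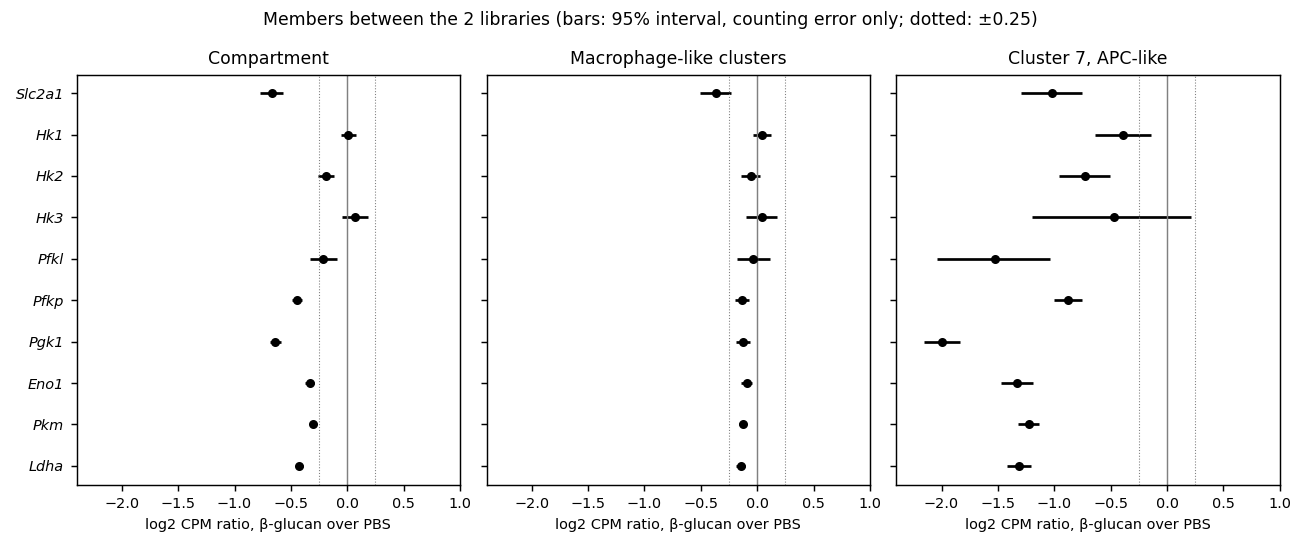
Log2 CPM ratio of β-glucan over PBS (x axis) for each member (y axis) in the compartment, in macrophage-like clusters and in cluster 7, with 95% intervals (counting error only) and dotted lines at ±0.25. Points sit close to 0 in macrophage-like clusters, apart from *Slc2a1*, and between -2.0 and -0.39 in cluster 7.

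The compartment's value was set largely by 1 cluster. The summed members were at a log2 ratio of -0.36 in the compartment, and of -0.16 when cluster 7 was left out. Of the 6 members past 0.25, *Slc2a1* alone stayed past it without cluster 7, at -0.38, while *Ldha* was at -0.21, *Pgk1* at -0.21, *Pfkp* at -0.21, *Pkm* at -0.15 and *Eno1* at -0.14. Cluster 7 supplied 188 cells to the β-glucan library and 350 to the PBS library, so the compartment's ratio mixes the number of such cells with their level. Several other measures moved with the comparison: UMIs from genes spanning at least 100 kb were 19.5% of the UMIs of the compartment's β-glucan cells and 17.7% of those of its PBS cells, and the median log2 ratio of all genes went from -0.058 for spans under 10 kb to 0.14 for spans of at least 100 kb. The members span 14.2 kb for *Ldha* to 111 kb for *Hk1*. Of those lower by at least 0.25, *Ldha*, *Eno1*, *Pgk1*, *Pkm* and *Slc2a1* span 14.2 to 30.5 kb and *Pfkp* 69.2 kb. Of the others, *Hk3* spans 15.5 kb, *Pfkl* 27.8 kb, *Hk2* 51.7 kb and *Hk1* 111 kb. The part of gene span in the members' ratios was not tested. With both libraries brought to the same weights over cluster and long-gene share, *Eno1* (-0.17), *Pkm* (-0.13) and *Ldha* (-0.23) no longer passed 0.25, and the summed ratio was -0.19. The 9 APC markers summed to 7269 CPM with β-glucan and 10874 CPM with PBS (7 of 9 higher with PBS), and the 6 neutrophil markers to 39.9 and 123 CPM (5 of 6 higher with PBS). Of 13 immediate-early and stress genes, which respond to tissue digestion, 9 were lower with β-glucan, 5 of them by at least 0.25, beside 4.83% of all genes. The list ran from *Dusp1*, a phosphatase gene, at -0.49 [-0.52 to -0.46] to *Jun*, a transcription factor gene, at 0.22 [0.18 to 0.26]. The 8 macrophage markers summed to 8928 and 8524 CPM. The part of dissociation and of other cells in the result was not tested.

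The 6 macrophage-like clusters were then summed (3434 cells with β-glucan and 2414 with PBS). In them 8 of 10 members were again lower with β-glucan, beside 4452 of all 9709 genes with at least 5 CPM. Only 1 member passed the limit, beside 3.21% of all genes lower by that much. That gene was *Slc2a1*, at 18.1 CPM with β-glucan and 23.4 CPM with PBS and a log2 ratio of -0.37 [-0.50 to -0.23]. *Ldha* was at -0.15 [-0.18 to -0.11] and *Pkm* at -0.13 [-0.16 to -0.098], *Pgk1* at -0.13 [-0.19 to -0.062] and *Pfkp* at -0.13 [-0.19 to -0.075]. *Eno1* was at -0.091 [-0.14 to -0.043]. *Hk1*, *Hk2*, *Hk3* and *Pfkl* had intervals that include 0, from -0.056 for *Hk2* to 0.042 for *Hk1*. The members' median was -0.11, beside 0.012 over all genes. In these cells 9 of 13 stress genes were lower, 6 of them by at least 0.25, and the neutrophil markers summed to 33.2 and 28.6 CPM. By cluster, *Slc2a1* was lowest relative to PBS in cluster 8, at 12.98 CPM with β-glucan and 24.9 CPM with PBS (-0.94 [-1.49 to -0.40]), then in cluster 0 (-0.39 [-0.57 to -0.20]), while in cluster 1 it was at 0.035 [-0.61 to 0.69]. The cluster 0 cells had the highest summed share of the members among macrophage-like cells, in a range that overlaps that of cluster 10. Their log2 ratios lay between -0.39 and 0.18 over the members.

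**Figure D3:**
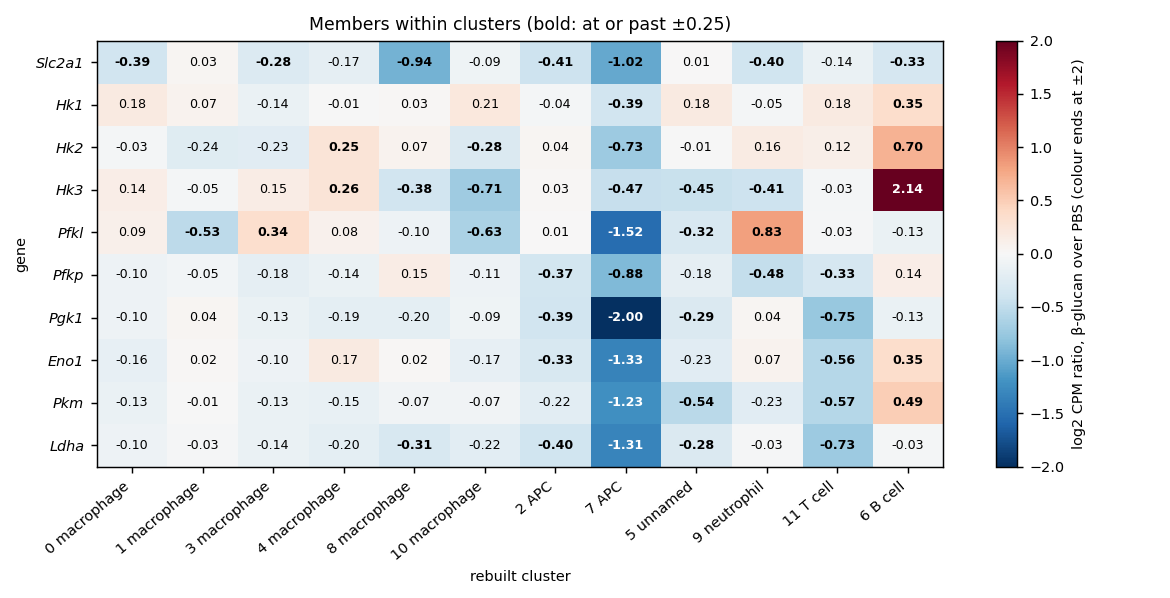
Log2 CPM ratio of β-glucan over PBS for each member (rows) in the 12 rebuilt clusters with at least 100 cells per library (columns), blue for lower and red for higher with β-glucan, in bold at or past 0.25. The column of cluster 7 is blue throughout, and the row of *Ldha* is at or below -0.029 in all 12 columns.

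Across the 12 clusters with at least 100 cells per library, *Ldha* was lower with β-glucan in 12, *Pkm* in 11, and *Slc2a1*, *Pfkp* and *Pgk1* in 10. These counts take the sign alone. The counting interval lay below 0 in 9 clusters for *Ldha*, 8 for *Pkm*, 6 for *Pfkp*, 4 for *Slc2a1* and 4 for *Pgk1*. The share of all genes lower in 10 or 11 clusters is not given here. Of 5012 genes with at least 20 CPM in each of these clusters, 2.06% were lower in all 12, and of the 6 members at that level throughout (*Hk1*, *Pfkp*, *Pgk1*, *Eno1*, *Pkm* and *Ldha*) 1, *Ldha*, was among them. *Hk1* was lower in 5, *Hk2* in 6 and *Hk3*, *Pfkl* and *Eno1* in 7. In cluster 2, the larger APC-like cluster, led by *Clec4b1* and *Retnla*, 5 of the 8 members with at least 20 CPM were lower by at least 0.25, beside 5.43% of all genes there. The transporter gene *Slc2a1* was at -0.41 [-0.66 to -0.16], *Ldha* at 217 CPM with β-glucan and 287 CPM with PBS (-0.40 [-0.48 to -0.32]), *Pgk1* at -0.39 [-0.51 to -0.27], *Pfkp* at -0.37 [-0.48 to -0.27] and *Eno1* at -0.33 [-0.43 to -0.22]. *Hk1* and *Hk2* in the same cells were at -0.038 [-0.21 to 0.13] and 0.040 [-0.14 to 0.22].

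Cluster 7 held the widest gap. These cells were led by *Ccl17*, *Slc7a2*, *Cd209a* and *Flt1*, and 7 of the 9 APC markers were detected in them. The APC markers summed to 45917 CPM with β-glucan and 37895 CPM with PBS, and the macrophage markers to 2263 and 2922 CPM. All 10 members were lower with β-glucan, and 9 of the 9 with at least 20 CPM were lower by at least 0.25, beside 16.7% of the 6534 genes measured there. A log2 ratio of -1 or below was reached by 6 of these 9, beside 1.93% of all genes. *Pgk1* was at 90.9 CPM with β-glucan and 363 CPM with PBS, a 3.99-fold higher level with PBS (-2.0 [-2.16 to -1.83]). *Pfkl* was at 10.5 CPM with β-glucan and 30.1 CPM with PBS (-1.52 [-2.04 to -1.04]), on 40 and 256 UMIs. Further down the pathway, *Eno1* was at 126 CPM with β-glucan and 317 CPM with PBS (-1.33 [-1.47 to -1.19]), *Pkm* at 293 CPM with β-glucan and 686 CPM with PBS (-1.23 [-1.32 to -1.14]) and *Ldha* at 229 CPM with β-glucan and 570.3 CPM with PBS (-1.31 [-1.42 to -1.21]). The transporter gene *Slc2a1* was at 37.5 CPM with β-glucan and 76.0 CPM with PBS (-1.02 [-1.29 to -0.76]), and *Pfkp* was at 170.3 CPM with β-glucan and 313 CPM with PBS (-0.88 [-1.01 to -0.76]). Hexokinases differed by less, with *Hk2* at 55.8 CPM with β-glucan and 92.5 CPM with PBS (-0.73 [-0.95 to -0.51]), *Hk1* at 47.2 CPM with β-glucan and 61.8 CPM with PBS (-0.39 [-0.64 to -0.14]) and *Hk3* at 6.29 CPM with β-glucan and 8.70 CPM with PBS (-0.47 [-1.20 to 0.21]), an interval that includes 0.

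At a finer resolution some cells of cluster 7 split off, 16 with β-glucan and 80 with PBS. They are all its cells outside the finer cluster that held most of its PBS cells, and whether they form 1 cluster was not tested. *Arg1*, which encodes the arginine-consuming enzyme arginase, was at 3095 CPM in these PBS cells and 0 UMIs in these β-glucan cells. The split-off cells of the libraries were thus unlike. *Pgk1* was at 109 CPM (22 UMIs) in the 16 cells and 520.1 CPM (1086 UMIs) in the 80 cells, *Pkm* at 409.6 and 1068 CPM and *Ldha* at 350.4 and 829 CPM. Median depth was 10012 UMIs per cell in the 16 cells and 24812.5 in the 80 cells. The remaining 172 and 270 cells still differed: *Pgk1* was at 89.9 CPM with β-glucan and 311 CPM with PBS (a log2 ratio of -1.79) and *Ldha* at 223 and 486 CPM (-1.13). The *Arg1* difference remained in these cells, at 0.553 CPM (2 UMIs) with β-glucan and 172 CPM (1104 UMIs) with PBS. Leaving out the split-off cells therefore did not remove it. Summed over the members, the log2 ratio was -1.24 (-1.29 to -1.19) for all of cluster 7 and -1.06 without the cells that split off. In *Slc7a2* and *Flt1*, which lead the cluster, the remaining cells also differed, at 2.77 and 473 CPM and at 31.0 and 277 CPM, so the cells of the 2 libraries in this cluster were unlike in more than glycolysis. The counterpart of cluster 7 at resolution 1 had a summed ratio of -0.66, and its size depends on where the cluster is drawn. Median depth in cluster 7 was 18158.5 and 23121 UMIs per cell, long genes took 17.6% and 16.0% of UMIs, and the 6 proliferation markers summed to 70.5 and 103.9 CPM, higher with PBS in 6 of 6. Markers of other cell types were higher with β-glucan, neutrophil markers at 53.2 and 16.8 CPM (1 of 6 higher with PBS), B cell markers at 93.3 and 45.2 CPM (0 of 6), basophil/mast markers at 28.0 and 9.52 CPM and endothelial markers at 22.3 and 9.64 CPM. The part of the cell cycle and of other cells' RNA in the result was not tested.

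To see whether the gap lay in all cells or in some, each cell was thinned to 4000 UMIs, and shallower cells were left out (1 and 3 of cluster 7). In cluster 7 the median cell then held 4 member UMIs with β-glucan and 6 with PBS, the upper quartile was 6 and 13, and the 95% quantile was 9 and 24. The libraries lay closest among the cells of low member counts and furthest apart among those of high counts. More than 10 member UMIs were held by 2.14% (0.586% to 5.39%, exact binomial) of 187 cells with β-glucan and by 30.3% (25.5% to 35.4%, exact binomial) of 347 cells with PBS. Without thinning, 2.13% and 31.7% of cells exceeded the same share of 0.25%. In cluster 2 the shares were 1.39% (0.603% to 2.72%, exact binomial) of 575 cells and 8.35% (6.20% to 10.9%, exact binomial) of 563 cells, and in cluster 0 they were 8.18% (6.47% to 10.2%, exact binomial) of 905 cells and 12.7% (10.2% to 15.4%, exact binomial) of 664 cells. In cluster 1, where the median cell held 3 and 3, 0 of 803 cells with β-glucan did, which allows a share of up to 0.374% at 3 counts of the total and 0.458% by the exact binomial limit, and 3 of 553 cells with PBS did. In T cell-like cells 1 of 102 and 20 of 111 cells did. Cells of 1 library are not replicates, and these intervals cover counting error only.

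**Figure D4:**
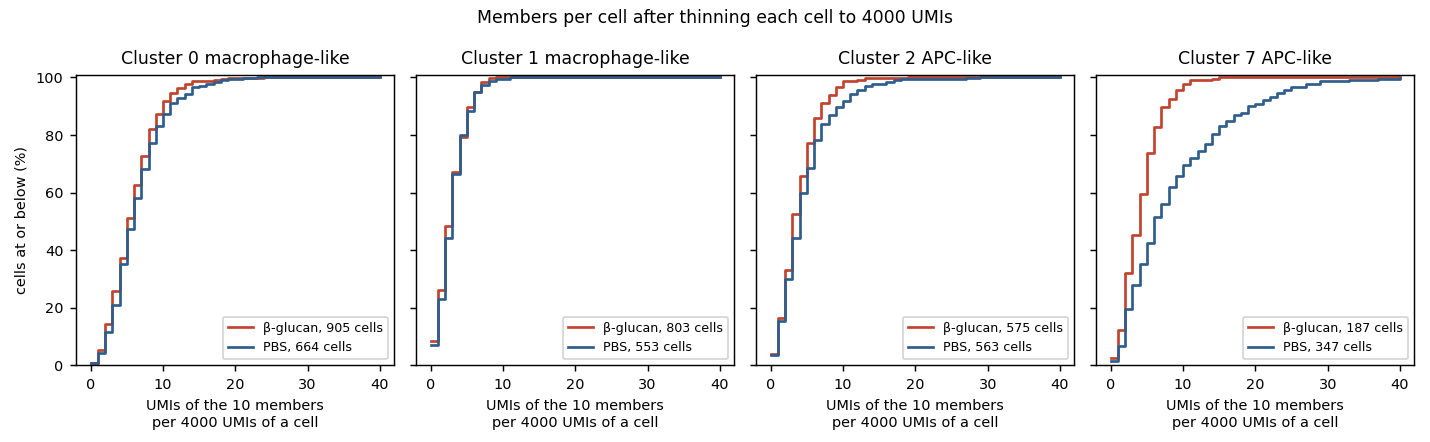
Cumulative share of cells (y axis, percent) at or below each number of member UMIs (x axis, sum of the 10 genes after thinning each cell to 4000 UMIs) in clusters 0, 1, 2 and 7 for β-glucan (red) and PBS (blue). The curves run together in cluster 1 and separate in cluster 7, where the PBS curve has a long right tail.

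The other enzymes of the pathway were measured as well. Of 18 further glycolytic enzymes, 9 had at least 5 CPM in the compartment, of which 5 were lower, 4 of them by at least 0.25, and 1 was higher by that much, with a median of -0.21. Of all genes there, 4.83% were lower and 7.57% higher by that much. *Pgam1*, phosphoglycerate mutase, was the lowest of those with at least 20 CPM, at 129 CPM with β-glucan and 183 CPM with PBS (-0.50 [-0.54 to -0.46]), and *Gpi1*, glucose phosphate isomerase, the highest at -0.21 [-0.25 to -0.18]. In cluster 7 all 6 with at least 20 CPM were lower by at least 0.25, beside 16.7% of all genes there. They ran from *Pgam1* at 107 CPM with β-glucan and 360.0 CPM with PBS (-1.75 [-1.90 to -1.60]) to *Aldoc* at -0.72 [-1.16 to -0.30]. *Gapdh* was at 576 CPM with β-glucan and 1417 CPM with PBS (-1.30 [-1.37 to -1.23]). *Aldoa* has 2 rows in the tables that were summed, and its split is uncertain.

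*Slc16a3*, which encodes the lactate exporter MCT4, was the lowest of its list in the compartment at -0.57 [-0.64 to -0.50] and in cluster 7, at 29.3 CPM with β-glucan and 150.4 CPM with PBS (-2.36 [-2.65 to -2.08]). *Slc16a7*, a monocarboxylate transporter gene, was the highest in the compartment at 80.4 CPM with β-glucan and 60.1 CPM with PBS (0.42 [0.36 to 0.48]). In cluster 7 the other glucose transporter gene *Slc2a3*, which encodes GLUT3, was higher with β-glucan, at 60.0 CPM with β-glucan and 35.4 CPM with PBS (0.76 [0.51 to 1.02]), against the direction of *Slc2a1*. Of the 9 genes of this list measured in the compartment 5 were higher and 4 lower, so the list had no common direction. Among regulators of phosphofructokinase, *Pfkfb3* was at 0.14 [0.069 to 0.20] in the compartment and at 78.6 CPM with β-glucan and 48.9 CPM with PBS in cluster 7 (0.69 [0.47 to 0.90]), while *Pfkfb4* was at -0.014 [-0.089 to 0.060] and -0.18 [-0.42 to 0.053].

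Pathways that branch from glycolysis held no gene past 0.25 in the compartment. Of 12 genes of pyruvate entry into mitochondria 7 were lower and 5 higher, and the extremes among genes with at least 20 CPM were *Mpc1*, a mitochondrial pyruvate carrier gene, at -0.22 [-0.26 to -0.18] and *Dlat* at 0.058 [-0.022 to 0.14]. The 7 pentose phosphate genes, 5 of them lower, ran from *Tkt*, transketolase, at -0.15 [-0.19 to -0.10] to *Rpe* at 0.063 [-0.048 to 0.17], and the 10 glycogen genes, 3 of them lower, from *Pgm2* at -0.055 [-0.15 to 0.037] to *Pygb*, a glycogen phosphorylase gene, at 0.21 [0.13 to 0.29]. Of the 2 gluconeogenesis genes measured, neither with 20 CPM, 1 was lower and 1 higher. In cluster 7, 7 of 8 pyruvate entry genes were lower, 2 of them by at least 0.25, beside 16.7% of all genes there. The 1 higher gene also passed 0.25. *Pdk1*, the kinase that closes pyruvate dehydrogenase, was the lowest at 15.5 CPM with β-glucan and 32.8 CPM with PBS (-1.08 [-1.52 to -0.68]). Of 7 glycogen genes in cluster 7, 6 were lower, 2 of them by at least 0.25, with a lowest ratio of -1.17. Of 6 pentose phosphate genes, 4 were lower, 1 of them by at least 0.25, and 1 was higher by that much. They ran from -0.70 to 0.32.

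Of the HIF pathway itself, *Hif1a*, the oxygen-regulated subunit, was at 128 CPM with β-glucan and 121 CPM with PBS in the compartment (0.081 [0.035 to 0.13]). Among the pathway's genes with at least 20 CPM, *Egln1*, an oxygen sensor gene, was the lowest at -0.17 [-0.24 to -0.11]. All 7 genes of the list with at least 5 CPM in the compartment ran from -0.20 to 0.20. In cluster 7 the 5 with at least 20 CPM ran from -0.96 to 0.18. There 4 were higher, and 1 was lower by at least 0.25, beside 16.7% of all genes. RNA of *Hif1a* does not report HIF protein. Of known HIF targets outside glycolysis, 3 of 10 measured in the compartment were lower by at least 0.25 and 0 were higher by that much, beside 4.83% and 7.57% of all genes, with *Bnip3*, a mitophagy gene, at -0.57 [-0.64 to -0.49] and *Cited2* at 0.11 [0.046 to 0.18] as the extremes above 20 CPM. In cluster 7, 9 of 10 were lower by at least 0.25, beside 16.7% of all genes, with a median of -0.96 beside 0.021 over all genes. *Bnip3* was at 16.0 CPM with β-glucan and 145 CPM with PBS there (-3.18 [-3.58 to -2.81]), and *Ankrd37* was at 4.45 CPM with β-glucan and 43.4 CPM with PBS (-3.28 [-4.08 to -2.58]). *Ndrg1* and *P4ha1* were at -0.96 and -1.07, and *Cited2*, at 0.12 [-0.13 to 0.37], was the 1 gene of the list that was not lower. Over the 16 clusters the level of *Bnip3* had r = 0.486 with the members' mean profile, the most alike of its list. The corresponding genes of the other lists were *Slc16a3* (r = 0.652), *Tkt* (0.798), *Mpc1* (0.678), *Atf3* (0.706), *Pgm2* (0.338), *Pfkfb4* (0.333) and *Egln1* (0.255).

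**Figure D5:**
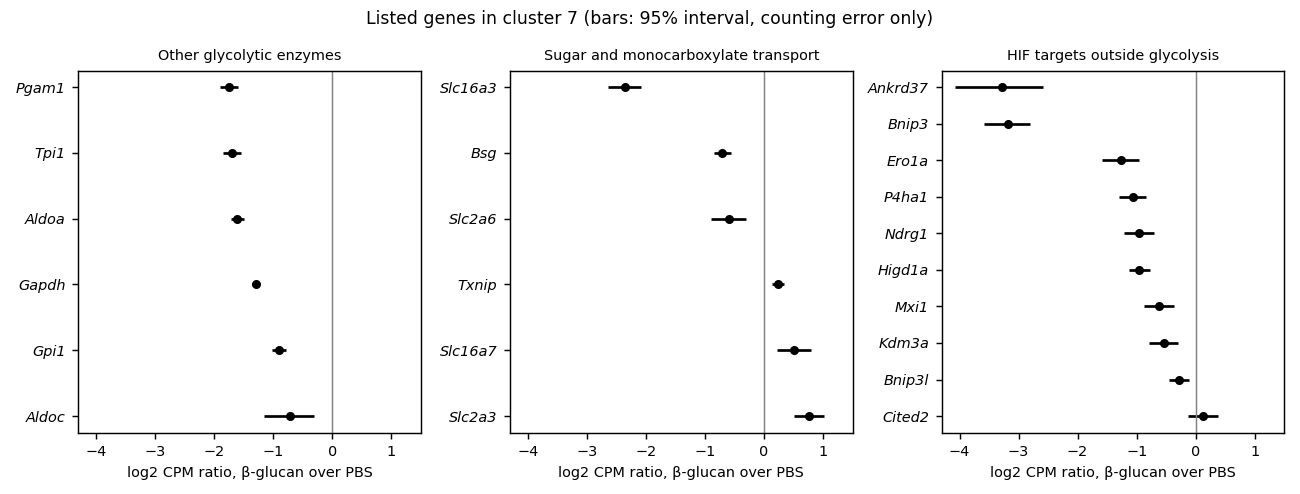
Log2 CPM ratio of β-glucan over PBS (x axis) in cluster 7 for genes with at least 20 CPM of 3 lists (panels, genes on the y axis), with 95% intervals (counting error only). All 6 further glycolytic enzymes and 9 of 10 HIF targets lie left of 0, while *Slc2a3*, *Slc16a7* and *Txnip* lie right of it.

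Outside the compartment, T cell-like cells (114 with β-glucan and 117 with PBS) differed in the lower pathway. Of the 9 members with at least 20 CPM there, 5 were lower by at least 0.25, beside 18.4% of all genes. *Pgk1* was at 120.2 CPM with β-glucan and 203 CPM with PBS (-0.75 [-1.06 to -0.45]), *Ldha* at 269 CPM with β-glucan and 446 CPM with PBS (-0.73 [-0.93 to -0.53]) and *Pkm* at 297 CPM with β-glucan and 439 CPM with PBS (-0.57 [-0.76 to -0.37]). *Eno1* was at 129 CPM with β-glucan and 191 CPM with PBS (-0.56 [-0.87 to -0.26]) and *Pfkp* at -0.33 [-0.63 to -0.040]. *Hk1*, highest in these cells, was at 0.18 [-0.21 to 0.57]. Proliferating-like cells, which with 50 and 74 cells were too few for the comparison of clusters, had 173 CPM with β-glucan and 357 CPM with PBS of *Pgk1*, and *Eno1*, *Pkm* and *Ldha* were at 138 and 265, 471 and 687 and 286 and 512 CPM. B cell-like cells went the other way for some members, with *Pkm* at 149.9 CPM with β-glucan and 107 CPM with PBS (0.49 [0.23 to 0.74]) and *Eno1* at 0.35 [0.0019 to 0.71]. In neutrophil-like cells *Hk3* was at -0.41 [-0.78 to -0.034] and *Pfkp* at -0.48 [-0.71 to -0.24], while *Ldha* was at -0.029 [-0.24 to 0.19] and *Pgk1* at 0.043 [-0.26 to 0.36]. Those neutrophil-like cells differed in quality between the libraries, with a median of 9391.5 UMIs and 2.23% mitochondrial UMIs with β-glucan and 4706.5 and 0.348% with PBS, and the part of this in the ratios was not tested.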

How the data were processed

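Droplet-based 3′ single-cell RNA-seq was analysed for 1 library per group. The authors deposited raw UMI counts from Cell Ranger 7.0.0 (named in the submitters' processing notes), aligned to GRCm39 per the paper's methods. The notes also name mm10, and whether introns were counted is not given in the sources used here. Barcodes under 500 genes or over 10% mitochondrial UMIs were dropped. For clustering, SCTransform (sctransform 0.4.2, Seurat 5.3.0, R 4.3.3) kept 3000 variable genes, of which the members and the listed pathway genes were left out, and Louvain clustering at resolution 0.7 used 20 neighbours in 30 components. These rebuilt names may differ from the study's. Scrublet (scanpy 1.11.5) called 1 cell per library, too few to have worked, so doublets were kept. UMIs were summed per cluster and library and scaled to CPM, with exact 95% Poisson and conditional binomial intervals, whose script was tested on simulated data. With 1 library per group no p-value was computed, and no depth removes that limit.

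The members and lists were chosen with earlier results of these data known. Named genes are the members, the highest and lowest ratio of each list among genes with at least 20 CPM, the gene of each list most like the members' mean profile, and the 3 genes most like each member. Genes that lead clusters and *Acot7*, *Arg1*, *Slc7a2*, *Flt1*, *Gapdh* in cluster 7, *Txnip*, *P4ha1* and *Ndrg1* were chosen after their values were seen. Genes on the other strand overlap 6 of the 10 members, and no gene on the same strand does. Alternatives were other filters, doublet removal, clusterings, cell sets, weights and scalings (edgeR 4.0.16 for TMM), and those that leave out or redraw cluster 7, 5 or 2 were chosen after seeing the data.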

Additional observations from a re-analysis of the deposited data

Results flagged for a closer look

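For 5 members the 95% counting interval of the log2 ratio of β-glucan over PBS lay above 0 in 1 cluster and below 0 in another, so that the libraries pointed in opposite directions. The difference between clusters was not tested, since each group is 1 library. How many of all genes hold such a pair of intervals was not counted, so these 5 are not set apart from other genes. *Hk1* was at 0.18 [0.041 to 0.32] in macrophage-like cluster 0 and at -0.39 [-0.64 to -0.14] in APC-like cluster 7. *Hk3* was at 2.14 [0.60 to 4.13] in B cell-like cells, on 24 and 4 UMIs, and at -0.71 [-1.43 to -0.021] in macrophage-like cluster 10, on 28 and 51 UMIs. *Pfkl* was at 0.83 [0.045 to 1.69] in neutrophil-like cells, on 69 and 17 UMIs, and at -1.52 [-2.04 to -1.04] in cluster 7. *Eno1* was at 0.35 [0.0019 to 0.71] in B cell-like cells and at -1.33 [-1.47 to -1.19] in cluster 7. Inside the compartment, intervals above 0 were also found for *Pfkl* in macrophage-like cluster 3 (0.34 [0.011 to 0.68]) and for *Eno1* in macrophage-like cluster 4 (0.17 [0.0096 to 0.34]). *Pkm* was at 0.49 [0.23 to 0.74] in B cell-like cells and at -1.23 [-1.32 to -1.14] in cluster 7. In B cell-like cells *Hk3* was at 9.72 and 2.21 CPM, a level close to the 8.87 and 4.32 CPM of basophil/mast-like cells, and the part of free RNA in it was not tested.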

How the results depend on the processing

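The log2 ratio of the summed members in the compartment, -0.36, stayed below 0 in all 16 alternatives run. Not all of these are separate checks. Resolution 0.5 gave the main value itself, and resolution 1 and members kept in the components gave -0.36 as well. It moved to -0.12 in macrophage-like clusters alone, -0.19 with the same weights over cluster and long-gene share, -0.26 with equal weight per cell, -0.31 per cluster, -0.38 with TMM factors and -0.39 in all cells of the sort. With cluster 7 left out it was -0.16 and with clusters 2 and 7 left out -0.13, alternatives that were added after seeing the data. The causes of these moves were not tested. The number of members lower stayed between 8 and 10. *Hk1* was lower in 5 and *Hk3* in 2 of 16 alternatives, and the other 8 members in each. The summed ratio in cluster 7, -1.24, was -1.06 without the cells that split off, -0.66 and -0.85 in its counterparts at resolution 1 and with members kept in the components, -1.16 with the same weights over long-gene share and -1.13 with equal weight per cell, all added after seeing the data. The fold of the summed members between the highest and lowest compartment cluster, 2.30, lay between 2.20 and 2.68. For that same pair of clusters, chosen on the mean of both libraries, the fold was 1.38 with β-glucan and 3.20 with PBS. The pair is clusters 7 and 1 in the main setting and was chosen anew in each other setting. Over the settings the fold ranged from 1.33 to 2.60 with β-glucan and from 2.29 to 3.32 with PBS. At resolution 1 it was 2.60 and 2.75, and with members kept in the components 2.11 and 2.29. The folds of the 2 libraries were thus closer in these settings than in the main one. With β-glucan, cluster 0 (0.155% of UMIs) lay above cluster 7 (0.107%), so 1.38 is not the widest fold in that library. Of the 6 members past 0.25, *Eno1* and *Pkm* lost that call with equal weight per cell, *Pfkp* and *Pkm* with equal weight per cluster, and all but *Slc2a1* with clusters 2 and 7 left out. Of the other lists, a minimum of 50 CPM, which leaves fewer genes, left 0 higher among further glycolytic enzymes (of 4), pyruvate entry (of 5), pentose phosphate (of 2) and gluconeogenesis (of 1), 1 among regulators of phosphofructokinase (of 2) and 2 in transport (of 5) and glycogen (of 7). TMM left 3 higher in pyruvate entry and 2 of 4 among stress genes, and the long-gene weights gave 4 in pentose phosphate and 2 in gluconeogenesis. No cluster had 3 stress genes among its 10 leading genes, so the alternative without such clusters gave no value. No paired analysis was possible because each group is 1 library.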

Other observations

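Among clusters with fewer than 50 cells in a library, APC-like cluster 17, led by *Clec9a* and *Xcr1*, known markers of a class of conventional dendritic cells, had 34 cells with β-glucan and 24 with PBS. The 10 members took 0.0961% with β-glucan and 0.143% with PBS of its UMIs. The unnamed cluster 18, led by *Plac8*, *Chil3* and *Ly6c2*, genes known from classical monocytes, had 21 and 23 cells, and the members took 0.109% with β-glucan and 0.108% with PBS. These clusters are too small for a comparison.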
